A study of Mus musculus with 10 samples.

Results

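The p53 pathway was examined in the RNA pulled down with the RNA-binding protein MEX3A, through 9 of its genes, Ccng1, Mdm2, Cdkn1a, Bax, Trp53, Trp53inp1, Phlda3, Sesn1 and Zmat3. They were chosen by gene symbol, with earlier results of these data known. All 9 were among the 15899 genes of the deposited matrix. RNA immunoprecipitation followed by sequencing (RIP-seq) was done with an anti-FLAG antibody on neurosphere cultures of neural stem cells from the subependymal zone of the brain of 10-week-old mice. FLAG cultures (strain Mex3aFLAG/FLAG) carry a FLAG tag on both copies of the endogenous Mex3a gene, so the tagged protein is made under its own promoter. WT cultures (Mex3a+/+) share the background but carry no tag, and RNA recovered from them is the nonspecific background of the antibody and beads. Cells grew as non-adherent spheres with EGF and FGF in both strains. Immunoprecipitation was done after formaldehyde crosslinking in 2 FLAG and 2 WT libraries, and under native conditions without crosslinking in 3 FLAG and 3 WT libraries.

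p53, encoded by Trp53, is a transcription factor that is stabilized by DNA damage and other stresses and that turns on genes for cell cycle arrest, DNA repair, metabolic adaptation and cell death. Among its targets are genes that limit it in turn, such as Mdm2, whose product marks p53 for degradation. In the adult subependymal zone p53 is known to restrain the self-renewal and proliferation of neural stem cells. MEX3A belongs to a family of cytoplasmic proteins that bind mRNA through KH domains, and its relative in worms, MEX-3, recognizes a short bipartite element in 3' UTRs.

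The 3' UTRs of the 9 genes were searched for letters matching the MEX-3 recognition element, and 6 of the 9 held at least 1 match. The pattern has a first part of 4 bases (any base but C, then G or T, then AG) and, after a spacer of 0 to 8 bases, a second part of 4 bases (T, any base but G, then TA). Only the strand of the transcript was searched, in the longest 3' UTR of a protein-coding transcript of each gene (GENCODE M21, GRCm38). By this form of the pattern the gene with the densest matches was Ccng1 (chr11:40748552-40755311, minus strand), whose 3' UTR of 2316 nt held 13. The 6 that lie nearest to its stop codon are shown with both parts in capitals, each followed by its position on the minus strand.

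Ccng1, 185 nt after the stop codon: GTAGcagtTTTA (chr11:40750672-40750683)

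Ccng1, 266 nt after the stop codon: AGAGaatacTTTA (chr11:40750590-40750602)

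Ccng1, 307 nt after the stop codon: ATAGcacttcTTTA (chr11:40750548-40750561)

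Ccng1, 340 nt after the stop codon: GTAGcttaTTTA (chr11:40750517-40750528)

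Ccng1, 522 nt after the stop codon: ATAGctagtatTTTA (chr11:40750332-40750346)

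Ccng1, 636 nt after the stop codon: ATAGcaaagaTTTA (chr11:40750219-40750232)

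Cdkn1a (chr17:29090979-29100722, plus strand) held 2 matches, which are shown because its pull-down values resembled those of Ccng1 with far fewer matches.

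Cdkn1a, 743 nt after the stop codon: GGAGgcataTCTA (chr17:29100136-29100148)

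Cdkn1a, 906 nt after the stop codon: AGAGcatTCTA (chr17:29100299-29100309)

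Sesn1 (chr10:41809935-41908424, plus strand) also held 2 matches, shown because it was the gene of the set without higher values in FLAG.

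Sesn1, 518 nt after the stop codon: ATAGaattTTTA (chr10:41907876-41907887)

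Sesn1, 581 nt after the stop codon: ATAGttTTTA (chr10:41907939-41907948)

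Matches of this kind are common, since 77.2% of the 12108 coding genes with a 3' UTR held 1 and the density over all of them was 2.80 matches per kb. Ccng1 held 5.61 per kb, and 97.8% of the 1865 3' UTRs within 20% of its length held a match, with a median of 6 matches. Zmat3 held 23 matches in 6692 nt (3.44 per kb) and Trp53inp1 held 14 in 4420 nt (3.17 per kb), against medians of 19 and 12 in 3' UTRs of similar length. Mdm2 held 3 in 1335 nt, the median of its length class, and Cdkn1a held 2 in 1334 nt, where the median was 3. No match was found in the 3' UTRs of Phlda3 (727 nt), Trp53 (565 nt) or Bax (224 nt), and a match was present in 72.4%, 61.9% and 33.5% of 3' UTRs of their respective lengths. Presence of the letters did not separate the genes with high values in FLAG from the others, because Phlda3 had none and Sesn1 had 2. The study's text gives the second part both with TA and with AT at its end. With AT, Ccng1 held 6 matches (2.59 per kb), equal to the median of its length class and less dense than Mdm2 (3.75 per kb), Trp53inp1 (3.62) and Sesn1 (2.81), and Phlda3 held 1.

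**Figure D1:**
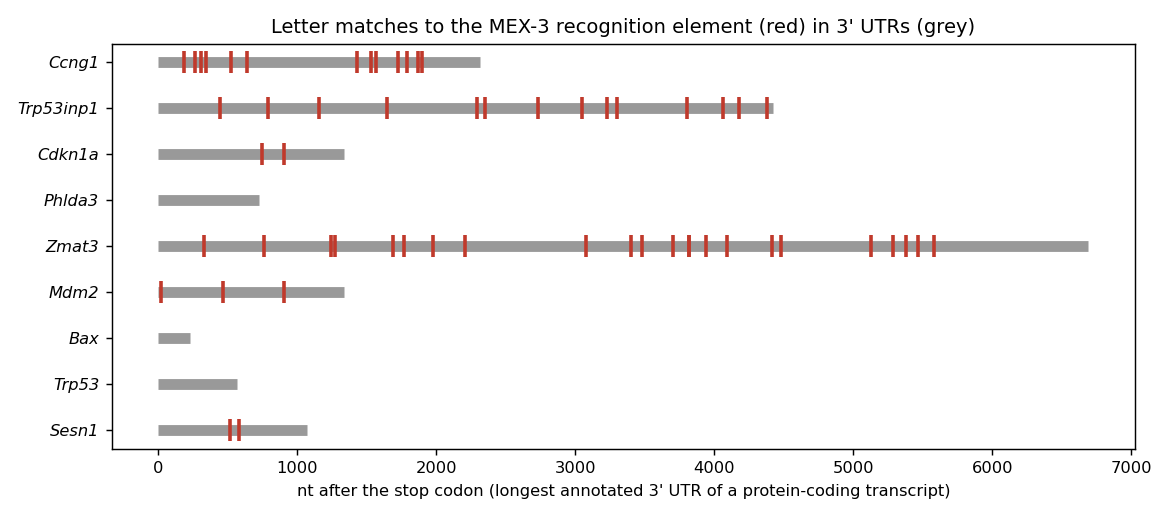
Each grey bar is the longest annotated 3' UTR of a gene, drawn to scale in nt after the stop codon, and each red tick is the start of a match to the MEX-3 recognition element. Ccng1 holds 13 matches in 2316 nt, Zmat3 23 in 6692 nt and Trp53inp1 14 in 4420 nt, while Phlda3, Bax and Trp53 hold none.

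The deposited values are log2 normalized read counts, with nearly the same distribution in every library, so the read depth of a library is unknown and no counting error can be given. Ties at the bottom show that FLAG native replicates 1 and 3 stand apart, with 329 and 178 genes at their lowest value against at most 3 in the other libraries. Mex3a itself, the tagged gene, ranged from 3.92 to 6.10 in the FLAG libraries and from 2.75 to 3.52 in the WT libraries. Markers of neural stem and progenitor cells were present, with 7 of 8 listed genes in the matrix and a summed linear level between 1976 and 2792 in every library, while Gfap was not analysed here. Genes listed as markers of other cell types were also recovered. Olig2, a transcription factor of the oligodendrocyte lineage, had log2 values of 5.81 to 5.82 in FLAG and 5.09 to 5.30 in WT after crosslinking, and of 5.56 to 7.18 against 4.95 to 5.78 in native libraries. Foxj1, the ciliary transcription factor of ependymal cells and the 1 of 3 ependymal markers in the matrix, had 0.57 to 0.64 against 0.01 to 0.23 after crosslinking and 0.51 to 2.83 against 0.77 to 1.77 in native libraries. Neither Olig2 nor Foxj1 differed at an adjusted p-value under 0.05, with 0.137 and 0.588 over all libraries (limma). Summed linear levels of 3 of 5 microglial markers ran from 28.8 to 36.6 and those of 2 of 4 endothelial markers from 1.16 to 3.10, and the latter were lower in FLAG after crosslinking (1.16 to 1.44 against 2.23 to 2.54), while FLAG and WT ranges overlapped otherwise. The part of such cells in the values below was not tested. A pull-down value rises both with the amount of a transcript in the cells and with the share of it that is bound. Input RNA was not analysed here, so neither these nor a change in the number of cells that express the gene can be told apart.

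The question of the experiment was which RNAs come down with tagged MEX3A above the background of untagged cultures. Of the 9 genes, 8 had higher mean values in FLAG than in WT under each protocol, as did 46.3% of all genes after crosslinking and 47.4% in native libraries. The 8 were led by Ccng1, Trp53inp1, Cdkn1a and Phlda3, and Sesn1 was the exception. None of the 9 passed the threshold of an adjusted p-value under 0.05 with a log2 fold change past 0.58, in the crosslinked libraries, the native libraries or all libraries together (limma, Benjamini-Hochberg adjustment over all 15899 genes). Few genes of the matrix did, with 0% of all genes called higher in each protocol alone and 0.264% in all libraries, and 0%, 0.107% and 0.233% called lower. Mex3a, the tagged gene, was not called either, with adjusted p-values of 0.340, 0.201 and 0.0789 (limma). Before adjustment, with p under 0.05 and that fold change, 2 of the 9 were higher after crosslinking, 5 in native libraries and 4 in all libraries, against 2.78%, 7.77% and 7.24% of all genes. None of the 9 was lower by this measure, against 0.987%, 7.06% and 5.28% of all genes. Their median log2 fold change was 0.25 after crosslinking, 0.62 in native libraries and 0.46 in all libraries, beside -0.02, -0.04 and -0.03 over all genes. The methods call the replicates biological replicates of the cultures, without saying how many animals they came from, so p-values measure the spread between these samples. Ccng1, Cdkn1a and Trp53inp1 are listed as MEX3A targets by the study on these same libraries, so their direction here is not independent evidence. The study applied the same cut-offs to raw counts with DESeq2, so the lack of a call here does not show a lack of enrichment.

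**Figure D2:**
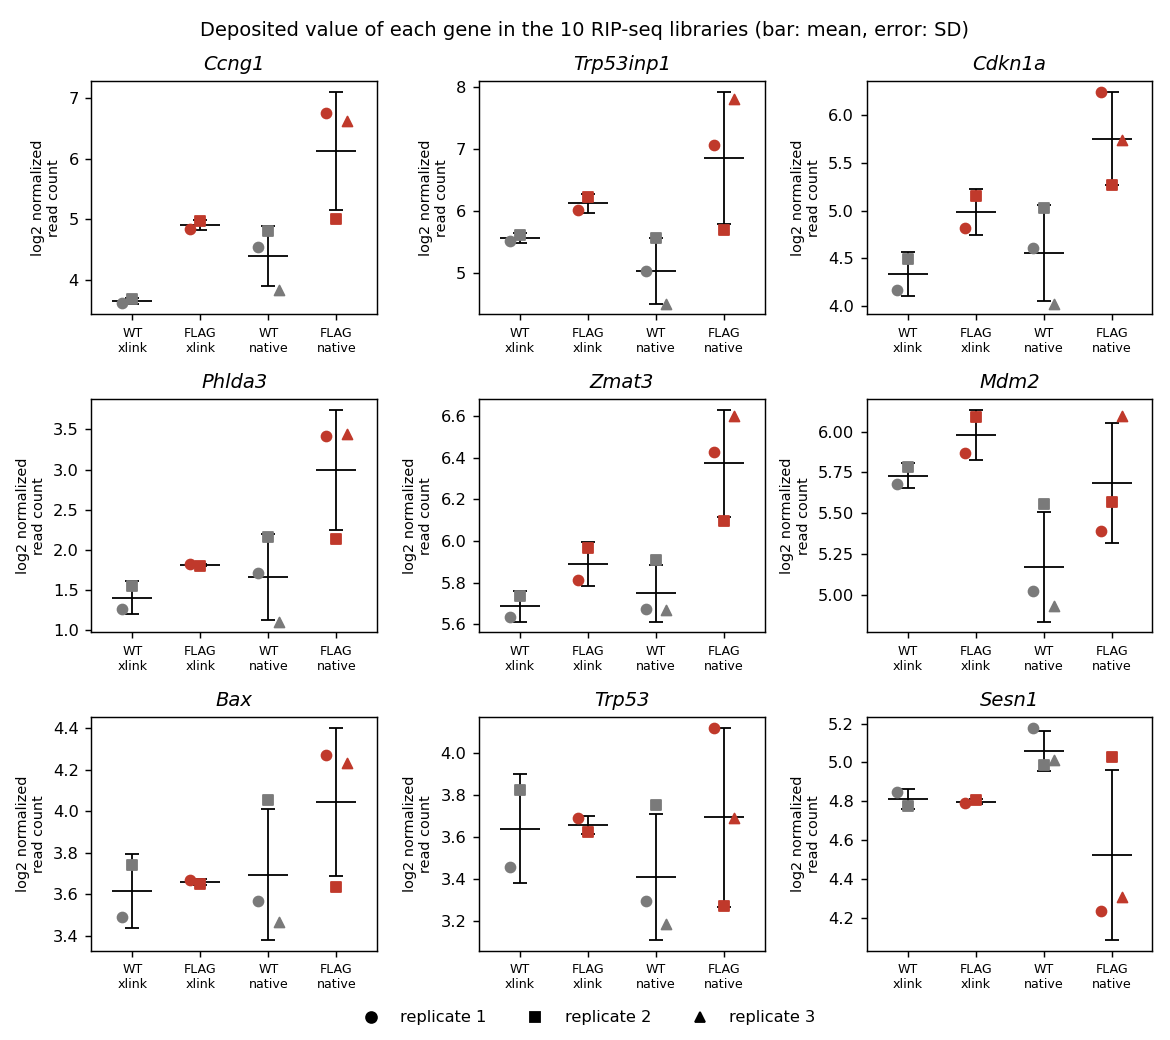
Points are the deposited log2 normalized read counts of each gene in the 10 libraries (grey WT, red FLAG, shape by replicate number), lines are group means and error bars are 1 SD (n = 2 crosslinked, abbreviated xlink, and n = 3 native). FLAG points lie above all WT points of their protocol in both protocols for Ccng1, Trp53inp1, Cdkn1a and Zmat3, and below or among them for Sesn1.

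Separation of the libraries was complete in both protocols for 4 of the 9 genes, Ccng1, Trp53inp1, Cdkn1a and Zmat3. In them the lowest FLAG library exceeded the highest WT library under each protocol, which held for 4.84% of all genes. Within the crosslinked libraries alone this was true of 6 genes, with Phlda3 and Mdm2 added, against 19.1% of all genes, and within the native libraries alone it was true of the same 4, against 8.62%. None of the 9 was lower in every FLAG library than in any WT library, against 19.9% of all genes after crosslinking, 10.8% in native libraries and 4.47% in both. Because Ccng1, Trp53inp1 and Cdkn1a are targets that the study called from these libraries, these counts are not independent evidence.

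Ccng1 encodes cyclin G1, an atypical cyclin induced by p53 that recruits the phosphatase PP2A and thereby acts on MDM2. Its log2 values after crosslinking were 4.84 and 4.97 in FLAG and 3.62 and 3.68 in WT. In native libraries they were 6.75, 5.00 and 6.62 in FLAG and 4.54, 4.80 and 3.84 in WT. The groups did not overlap in either protocol, but FLAG native replicate 2 was only slightly above the highest WT native library. FLAG exceeded WT by a log2 fold change of 1.25 ± 0.09 (SE, 2.38-fold) after crosslinking, with an adjusted p-value of 0.315 (limma). In that comparison Ccng1 ranked 4 among all genes by unadjusted p-value and 203 by fold change. These ranks were 307 and 230 in native libraries and 139 and 163 over all libraries. The log2 fold change was 1.73 ± 0.46 (3.32-fold) in native libraries, with an adjusted p-value of 0.232 (limma). Over all libraries it was 1.54 ± 0.32 (2.91-fold, 5 against 5 libraries), with an adjusted p-value of 0.0702 (limma), the lowest of the 9. Ccng1 and Cdkn1a were the genes of the set with a log2 fold change past 0.58 in both protocols, as were 4.16% of all genes. The adjusted p-value of Ccng1 over all libraries ranged from 0.000198 to 0.203 across the alternative settings. It passed at 0.0112 without FLAG native replicate 2, at 0.0484 without WT crosslinked replicate 2 and at 0.000198 with array weights. Those weights were 10.19 for FLAG crosslinked replicate 2 and 9.02 for WT crosslinked replicate 1. They were at most 1.36 for every other library, so the last value leans mainly on those libraries.

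Cdkn1a encodes p21, the inhibitor of cyclin-dependent kinases through which p53 arrests the cell cycle. The log2 values were 4.81 and 5.16 in FLAG and 4.17 and 4.50 in WT after crosslinking. Native values were 6.24, 5.27 and 5.74 in FLAG and 4.61, 5.03 and 4.03 in WT, again without overlap. Fold changes on the log2 scale were 0.65 ± 0.18 (SE) after crosslinking, 1.20 ± 0.32 in native libraries and 0.98 ± 0.23 over all libraries, with adjusted p-values of 0.563, 0.232 and 0.0891 (limma). Of its 3553 nt of exon sequence, 273 nt overlap an unnamed transcript on the opposite strand, and the strand setting used in counting is not given in the sources used here.

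Trp53 is the gene of p53 itself, and its product is controlled mainly at the level of protein stability. Its log2 values were 3.69 and 3.62 in FLAG and 3.45 and 3.82 in WT after crosslinking. In native libraries they were 4.12, 3.27 and 3.69 in FLAG and 3.29, 3.75 and 3.19 in WT. FLAG and WT overlapped in both protocols. The log2 fold change over all libraries was 0.18 ± 0.18 (SE), with a 95% interval from -0.23 to 0.58 (limma, adjusted p-value 0.559).

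Mdm2 encodes the ubiquitin ligase that degrades p53 and is itself a p53 target. Crosslinked values were 5.87 and 6.09 in FLAG and 5.68 and 5.78 in WT, without overlap. Native values were 5.39, 5.57 and 6.10 in FLAG and 5.02, 5.55 and 4.93 in WT, where WT replicate 2 lay above FLAG replicate 1. Its log2 fold change was 0.25 ± 0.11 after crosslinking, 0.51 ± 0.25 in native libraries and 0.41 ± 0.17 over all libraries (SE), with an adjusted p-value of 0.207 for the last (limma).

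The genes of the set linked to cell death ranged from no clear difference to the highest fold change. Trp53inp1 encodes a stress-induced cofactor of p53 that acts in apoptosis and autophagy. Its log2 values were 6.02 and 6.23 in FLAG and 5.51 and 5.62 in WT after crosslinking. Native values were 7.07, 5.69 and 7.81 in FLAG and 5.04, 5.56 and 4.50 in WT, and the gap between the lowest FLAG and the highest WT library was small. The log2 fold change was 0.56 ± 0.11 (SE) after crosslinking and 1.82 ± 0.49 in native libraries, where it was the highest of the 9 (3.54-fold). Over all libraries it was 1.32 ± 0.39, with an adjusted p-value of 0.127 (limma). With the uneven array weights given for Ccng1 it was 0.75 (limma, adjusted p-value 0.00335).

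Phlda3 encodes a small protein with a PH domain that competes with AKT for membrane lipids and so opposes survival signalling. It had log2 values of 1.82 and 1.80 in FLAG and 1.25 and 1.55 in WT after crosslinking. Native values were 3.42, 2.13 and 3.44 in FLAG and 1.71, 2.16 and 1.10 in WT. WT native replicate 2 lay just above FLAG native replicate 2, so the native groups overlapped. Its log2 fold change was 0.41 ± 0.16 (SE) after crosslinking, 1.34 ± 0.43 in native libraries and 0.97 ± 0.32 over all libraries, with an adjusted p-value of 0.149 for the last (limma). The fold change of Phlda3 depended on the treatment of low values, since with a pseudocount of 8 on the linear scale it was 0.11, 0.54 and 0.37, each short of the fold threshold. With array weights it was 0.57 over all libraries.

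Bax encodes a pore-forming protein of the BCL2 family that releases cytochrome c from mitochondria. Crosslinked values were 3.67 and 3.65 in FLAG and 3.49 and 3.74 in WT. Native values were 4.27, 3.63 and 4.23 in FLAG and 3.57, 4.05 and 3.46 in WT. Both protocols overlapped, and the log2 fold change over all libraries was 0.23 ± 0.17 (SE), with a 95% interval from -0.15 to 0.60 (limma, adjusted p-value 0.425). A predicted gene, Gm45808, shares 192 nt of the 1576 nt of Bax exon sequence on the same strand, so reads there could be split between them.

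Zmat3 encodes a zinc finger protein that binds RNA, and it is a p53 target. Its log2 values were 5.81 and 5.96 in FLAG and 5.63 and 5.74 in WT after crosslinking. Native values were 6.43, 6.09 and 6.60 in FLAG and 5.67, 5.91 and 5.67 in WT. The differences were small but without overlap, with a log2 fold change of 0.20 ± 0.10 (SE) after crosslinking, 0.62 ± 0.19 in native libraries and 0.46 ± 0.13 over all libraries, the last with an adjusted p-value of 0.121 (limma).

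Sesn1 encodes a sestrin, a stress protein that restrains the growth kinase mTORC1. Its log2 values after crosslinking were 4.79 and 4.81 in FLAG and 4.85 and 4.77 in WT, which overlapped. In native libraries they were 4.24, 5.03 and 4.31 in FLAG and 5.18, 4.98 and 5.01 in WT, so that FLAG replicates 1 and 3 were low and FLAG replicate 2 lay among the WT libraries. The log2 fold change was -0.01 ± 0.08 (SE) after crosslinking, -0.53 ± 0.24 in native libraries and -0.33 ± 0.17 over all libraries, with an adjusted p-value of 0.280 for the last (limma). With array weights the value over all libraries was -0.064.

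**Figure D3:**
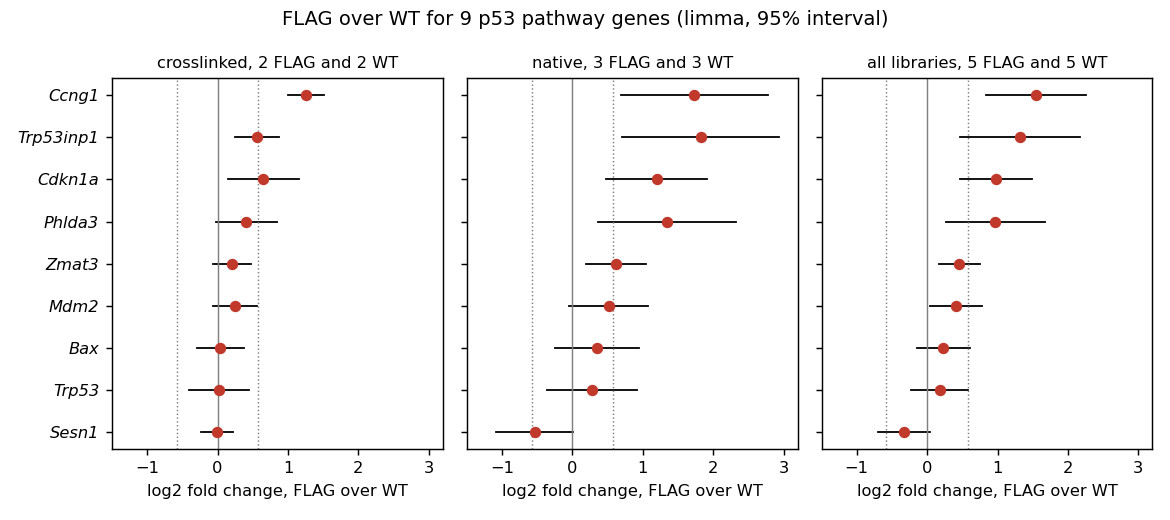
Points are the log2 fold change of FLAG over WT for each gene, bars are the 95% intervals of limma, and dotted lines mark the fold threshold of 0.58 in each direction. Ccng1 has the highest fold change in the crosslinked libraries (1.25) and over all libraries (1.54), Trp53inp1 in the native libraries (1.82), and Sesn1 is below 0 in each panel.

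The native FLAG libraries differed among themselves for most of the 9 genes. Set against the WT mean of its own protocol, the median difference of the 9 genes was 0.14 and 0.36 in FLAG crosslinked replicates 1 and 2, and 0.71, 0.40 and 0.92 in FLAG native replicates 1, 2 and 3. FLAG native replicates 1 and 3, the libraries with many ties, had 6 of the 9 genes more than 0.58 above the WT mean, but they also had 26.1% and 23.1% of all genes there. FLAG native replicate 2 had 3 of 9, beside 7.59% of all genes. Among the WT libraries, native replicate 2 was high, with a median 0.57 above the other WT native libraries and 8 of 9 genes above them, beside 47.8% of all genes. WT native replicate 3 was low, with 0 of 9 above the others, beside 56.9% of all genes.

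Without FLAG native replicate 2, 5 of the 9 genes were called higher in the native libraries, namely Ccng1 (2.30, adjusted p-value 0.00464), Trp53inp1 (2.41, 0.00614), Cdkn1a (1.44, 0.0174), Phlda3 (1.78, 0.0158) and Zmat3 (0.76, 0.0156), all by limma on the log2 scale. Sesn1 was called lower, at -0.79 with an adjusted p-value of 0.0173 (limma). The same omission raised the share of all genes called higher in native libraries from 0% to 9.12% and the share called lower from 0.107% to 10.8%. Over all libraries the omission left Ccng1 (1.82, adjusted p-value 0.0112), Cdkn1a (1.08, 0.0391) and Trp53inp1 (1.57, 0.0431) called higher (limma), beside 3.25% of all genes. The 2 FLAG libraries that remain in the native comparison are the ones that stand apart by their ties, and the part of depth in these calls was not tested.

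**Figure D4:**
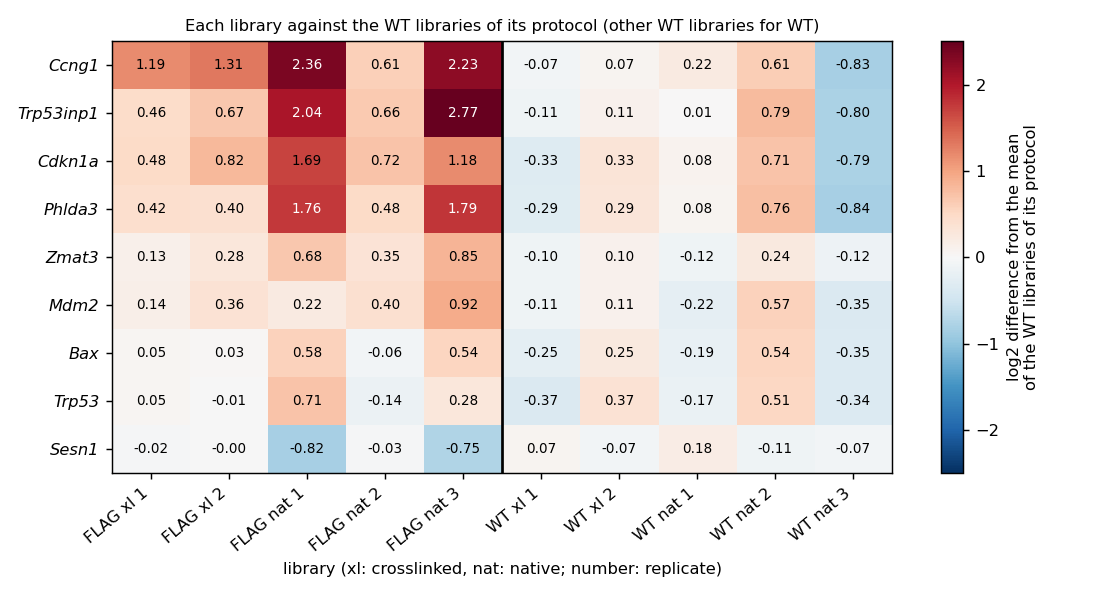
Colours and numbers give the log2 difference of each gene in each library from the WT mean of its protocol, which for a WT library leaves out that library itself. Ccng1, Trp53inp1, Cdkn1a and Phlda3 are higher in all 5 FLAG libraries, most in native replicates 1 and 3, and WT native replicate 2 is raised in 8 of the 9 genes.

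The protocols were also compared with each other within each strain, to see how crosslinking altered recovery of these transcripts. None of the 9 genes was called in either strain, where 0.044% of all genes were called higher after crosslinking in each, and 0.289% (WT) and 0.396% (FLAG) lower. None was called in the test of the difference between the fold changes of the protocols, in which the adjusted p-value was 0.970 for each of the 9 (limma, 4-group fit). No gene of the matrix was called in that test, and before adjustment 0 of the 9 had p under 0.05, against 0.233% of all genes past the fold in the one direction and 0.182% in the other. In FLAG, 3 of the 9 were lower after crosslinking before adjustment (p under 0.05 and past the fold), against 7.54% of all genes, and none was higher, against 4.61%. These were Ccng1, with a log2 difference of -1.22 ± 0.47 (SE) between crosslinked and native libraries, Phlda3 with -1.19 ± 0.43 and Cdkn1a with -0.77 ± 0.33, and their adjusted p-values were 0.275, 0.244 and 0.316 (limma). Without FLAG native replicate 2, 4 of the 9 were called lower after crosslinking in FLAG, namely Ccng1 (-1.79), Phlda3 (-1.62), Trp53inp1 (-1.31) and Zmat3 (-0.62), beside 9.08% of all genes. In WT the difference for Ccng1 was -0.74 ± 0.47, and that for Mdm2, which was higher after crosslinking in the mean of both strains, was 0.56 ± 0.24 in WT and 0.29 ± 0.24 in FLAG. In WT 0 of the 9 passed before adjustment, against 2.85% of all genes higher and 3.55% lower after crosslinking.

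Background recovery in WT could be ordered only in part. Per kb of exon sequence, the mean log2 level over the 5 WT libraries was 3.05 ± 0.39 (SD) for Mdm2, 3.01 ± 0.24 for Bax and 2.97 ± 0.16 for Sesn1. It was 2.64 ± 0.39 for Cdkn1a, 2.55 ± 0.48 for Trp53inp1, 2.28 ± 0.54 for Ccng1 and 2.21 ± 0.11 for Zmat3. Trp53 followed at 1.49 ± 0.28 and Phlda3 at 0.91 ± 0.42. Neighbours in this order had overlapping ranges, with the exception of Zmat3 and Trp53. The order differed between protocols, since in native WT libraries Sesn1 (3.06) and Bax (3.04) had higher means than Mdm2 (2.83), and in crosslinked WT libraries Ccng1 (1.81 and 1.87) lay below Zmat3 (2.12 and 2.22). In FLAG native replicates 1, 2 and 3, the log2 level of Ccng1 per kb was 4.94, 3.18 and 4.81. It was the highest of the 9 in replicate 1, while Trp53inp1 was higher in replicate 3 (5.11) and Cdkn1a (3.44) and Mdm2 (3.22) were higher in replicate 2.

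Across the 10 libraries, the values of Phlda3 (Pearson r = 0.97), Cdkn1a (0.95) and Zmat3 (0.95) were most like those of Ccng1 among the 9 genes. Trp53inp1 followed at 0.86 and Bax at 0.84, while Trp53 was at 0.54, Mdm2 at 0.28 and Sesn1 at -0.76. These are descriptions over libraries that share the 4 groups and differ in their ties at the lowest value. Of the 7568 genes with a mean log2 value of at least 3, those most like Ccng1 outside the set were Fam84a (r = 0.99, Spearman's rho = 0.94), F2r (0.99 and 0.99), Gja1 (0.99 and 0.87), Hmgcs1 (0.99 and 0.92) and Bzw1 (0.99 and 0.90). F2r encodes the thrombin receptor, Gja1 the gap junction protein connexin 43, and Hmgcs1 an enzyme of cholesterol synthesis. Cdkn1a ranked 91 and Zmat3 ranked 117 on the same scale.

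Around the 9 genes, 48 further genes of the p53 pathway were listed by role, of which 44 were in the matrix. None was called in any of the 3 FLAG over WT comparisons (limma). Before adjustment (p under 0.05 and past the fold), 3, 12 and 10 of the 44 were higher in the crosslinked, native and all-library comparisons, against the 2.78%, 7.77% and 7.24% of all genes given above. None, 1 and none were lower, against 0.987%, 7.06% and 5.28% of all genes. Their median log2 fold change over all libraries was 0.15. Differences between the role groups were not tested. The median over all libraries was 0.27 for arrest and growth control (7 genes), 0.52 for cell death (9), 0.32 for DNA repair and nucleotide supply (6), 0.53 for metabolism, autophagy and redox (6), -0.01 for feedback on p53 (5) and -0.10 for kinases and cofactors upstream of p53 (11).

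Pmaip1, which encodes the BH3-only death protein NOXA, had the highest log2 fold change of the list over all libraries, at 2.28 (limma, adjusted p-value 0.0885). Its log2 values were low throughout, with 1.00 and 0.23 in FLAG against -1.80 and -0.16 in WT after crosslinking, and 2.33, 0.36 and 1.76 against -1.38, -0.19 and -2.19 in native libraries. FLAG lay above WT in every library of its protocol. Over all libraries Pmaip1 was called without FLAG native replicate 2 (2.53, adjusted p-value 0.0384, limma) and without WT crosslinked replicate 2 (2.64, 0.0335). It was also called with the uneven array weights given for Ccng1 (2.02, 0.000531, limma). Of the 44 genes, 4, 1 and 8 were called higher over all libraries under these settings, against 3.25%, 1.14% and 6.95% of all genes, and none lower, against 1.17%, 1.38% and 6.06%. At the other end of the cell death group, Apaf1, the scaffold of the apoptosome, was at 0.05. Btg2, an antiproliferative p53 target, was at 1.16 and Gtse1, a regulator of p53 in G2, at 0.04. In repair, Rps27l was at 0.92 and the polymerase gene Polk at -0.19. In metabolism, Gpx1, a glutathione peroxidase, was at 1.06 and Ephx1, an epoxide hydrolase, at 0.07. In the feedback group the ubiquitin ligase gene Rchy1 was at 0.21 and the phosphatase gene Ppm1d at -0.15, and upstream of p53 the kinase genes Hipk2 and Prkdc were at 0.31 and -0.44.

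Relatives of the 9 genes, not all of which are p53 targets, were listed as well, 2 of them (Mdm4 and Sesn2) also in the role groups above. None of the 12 paralogues in the matrix was called (limma), and before adjustment 2, 5 and 4 were higher in the crosslinked, native and all-library comparisons, against 2.78%, 7.77% and 7.24% of all genes. None was lower, against 0.987%, 7.06% and 5.28%. Without FLAG native replicate 2, 5 of the 12 (Cdkn1b, Phlda1, Sesn2, Sesn3 and Trp53inp2) were called higher in native libraries (limma), beside 9.12% of all genes. The median of the 12 was 0.45 over all libraries. Phlda1 had the highest value at 1.57, followed by the kinase inhibitor Cdkn1b (p27) at 1.10, Trp53inp2 at 0.90 and Ccng2 at 0.70, and Zmat1 had the lowest at 0.02. Among the sestrins, Sesn2 was at 0.41 and Sesn3 at 0.50, on the other side of 0 from Sesn1 at -0.33. Mdm4 was at 0.13, below Mdm2 at 0.41. Without FLAG native replicate 2, 10 of the 44 pathway genes were called higher and 2 lower in native libraries (limma), against 9.12% and 10.8% of all genes, and the 2 lower were Polk and Prkdc.

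**Figure D5:**
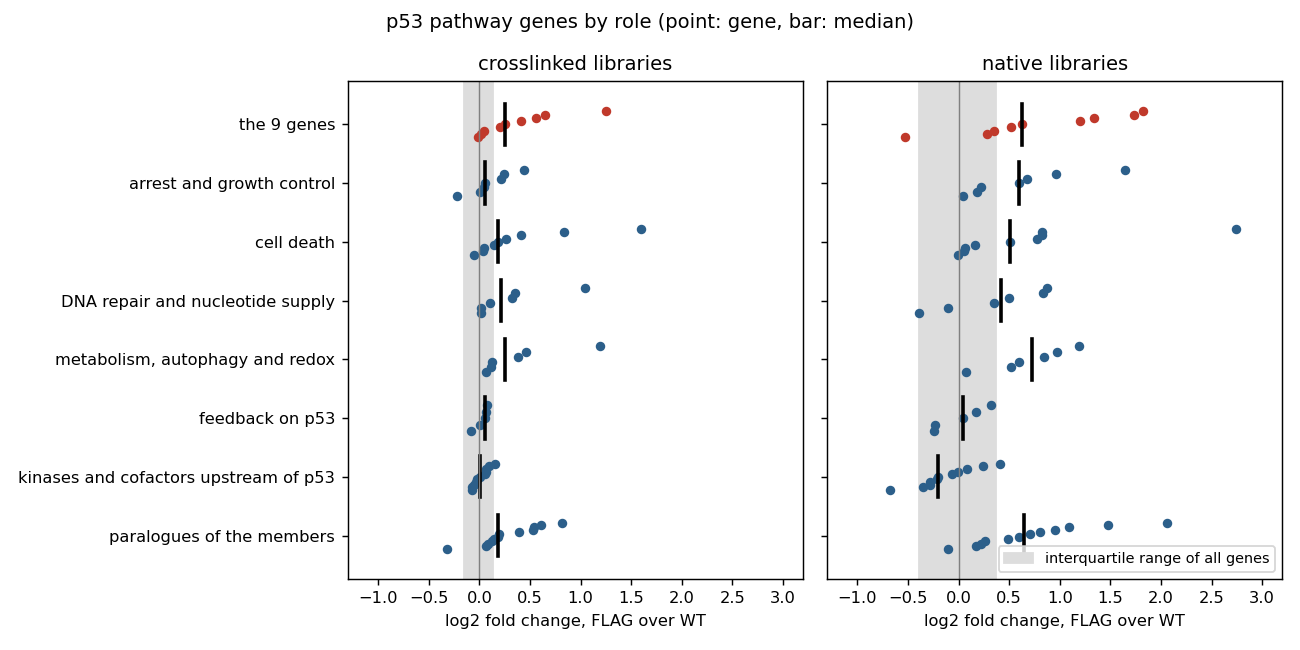
Points are log2 fold changes of FLAG over WT for the 9 genes (red) and the further p53 pathway genes by role (blue), black bars are group medians, and the grey band is the interquartile range of all genes. In the native panel 8 of the 9 genes are above 0, with a median of 0.62, and Pmaip1 is the point farthest to the right.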

How the data were processed

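RIP-seq libraries of 4 groups (FLAG and WT, crosslinked and native) were grouped by their labels. The authors deposited log2 normalized read counts for 15899 genes. Per the methods, Cutadapt and Trimmomatic trimmed the reads, HISAT2 aligned them to GRCm38, and featureCounts counted them per gene of GENCODE M16. The methods name DESeq2 and the submitters' processing notes name limma, so how the values were normalized is not settled. Linear values of each library sum to between 949427 and 949437, so depth is unknown and no count model was run.

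FLAG and WT were compared in limma 3.58.1 under R 4.3.3 (lmFit, and eBayes with a mean-variance trend), within each protocol and over all libraries with protocol as a covariate. A fit of 4 group means gave the protocol contrasts and the interaction. Benjamini-Hochberg adjustment ran over all genes, and genes under an adjusted p-value of 0.05 and past a log2 fold change of 0.58 were called. The steps were tested on simulated data with 200 changed genes. For each gene the simulated noise had the same spread in every library and no ties, unlike these data. That test therefore does not show how far the calls hold here. Other steps ran in Python 3.11.15 with pandas 2.3.3, scipy 1.17.1, matplotlib 3.10.9 and numpy 2.4.6.

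The 9 genes and the lists were chosen with earlier results of these data known. All 9 and Mex3a are named, with the 5 genes most like Ccng1 and, of each role list, the highest and lowest fold change over all libraries and any called gene. Paralogues other than Phlda1 and Zmat1 were named as counterparts of the 9 genes after their values were seen. The neuroblast marker list had 0 of 4 genes in the matrix. Of the oligodendrocyte lineage list, only Olig2 is reported here.

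Same-numbered libraries of 1 genotype deviated together across protocols (correlation of deviations 0.178 and 0.154 in FLAG, 0.300 and 0.388 in WT), which is a sign of pairing from the data and not from the labels. The main fits hold no pairing, and a block within genotype was run as an alternative. Same-numbered FLAG and WT libraries did not deviate together (-0.274 crosslinked and -0.149, -0.430 and -0.167 native), and -0.430 is larger in size than any value within a genotype. Alternatives were a pseudocount of 1 or 8, a minimum mean of 1 or 10, median centring, array weights, no trend, robust moderation, 1 fit of 4 groups, the replicate block, and each library left out. The block within genotype, the crossed block and the alternatives for the protocol contrasts and the pathway list were added after seeing the data.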

Additional observations from a re-analysis of the deposited data

How the results depend on the processing

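The median log2 fold change of the 9 genes moved by less than the spread between replicates under every alternative, and stayed between 0.14 and 0.36 after crosslinking, 0.51 and 0.80 in native libraries and 0.37 and 0.52 over all libraries. Depth is unknown, groups hold 2 or 3 libraries, and a group left with 1 library was assumed to vary like the others.

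Counts of calls moved far more. With array weights, 6 of the 9 genes were called higher and 1 lower in native libraries, 3 higher over all libraries, 1 higher after crosslinking in WT (Mdm2) and 3 lower after crosslinking in FLAG (shares of all genes 10.4%, 12.1%, 6.95%, 2.76% and 5.69%). Over all libraries those weights fell mainly on FLAG crosslinked replicate 2 and WT crosslinked replicate 1. Leaving out 1 library gave 0 to 5 of the 9 called higher and 0 to 1 lower in native libraries, 0 to 3 higher over all libraries and 0 to 4 lower after crosslinking in FLAG, the highest counts each without FLAG native replicate 2. Without WT crosslinked replicate 2 there was 1 over all libraries, Ccng1 (1.60, adjusted p-value 0.0484, limma), beside 1.14% of all genes.

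Over all genes, calls in native libraries were 0 higher and 17 lower. Higher calls became 1656 with array weights, 2 with robust moderation, 1 in the fit of 4 groups and 0 to 1450 leaving out 1 library. Lower calls became 7 at a minimum mean of 10, 1921 with array weights, 0 with no trend, 3 in the fit of 4 groups and 0 to 1710 leaving out 1 library. Crosslinked calls were 0 in each direction, and 0 to 4 higher leaving out 1 library. Over all libraries, 42 higher calls became 10 with a pseudocount of 8, 13 at a minimum mean of 10, 1105 with array weights, 13 with no trend and 4 to 516 leaving out 1 library, and 37 lower calls became 964, 12 and 7 to 219 with array weights, no trend and 1 library left out. The cause was not tested.

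With the replicate number as a block between FLAG and WT, which share only a number, 1 gene was called higher and 13 lower in native libraries, and over all libraries 14 higher and 20 lower. Pairing within genotype (a block across protocols, consensus correlation 0.327) gave 7 higher and 8 lower over all libraries. None of the 9 genes was called under any of these blocks, nor any gene under the crossed pairing of the crosslinked libraries.

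Of the fold changes of single genes, 9 changed sign under at least 1 alternative, and none of these was called there. Leaving out 1 library, those after crosslinking ran from -0.083 to 0.17 for Bax, from -0.17 to 0.20 for Trp53 and from -0.049 to 0.024 for Sesn1. For crosslinked over native they ran in WT from -0.48 to 0.018 for Cdkn1a, from -0.20 to 0.10 for Bax and from -0.12 to 0.016 for Zmat3, and in FLAG from -0.25 to 0.18 for Trp53. Bax in WT was at 0.027 with array weights, and the difference between protocols was -0.045 for Ccng1 and -0.058 for Mdm2 with the block within genotype. Matches to the recognition element in Ccng1 fell from 13 to 6 with AT at the end of the second part.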
